A study of Mus musculus with 24 samples.

Results

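The genes described here are 38 antiviral effectors of the type I interferon response, measured in primary murine bone marrow-derived macrophages (BMDMs). They were taken from the deposited expression values by gene symbol, from a list drawn up with earlier results of these data known, and all 38 were found among the 35770 gene names listed. They comprised 5 members of the IFIT family, 4 genes of the ISG15 system, 7 OAS genes, 2 MX GTPases, 6 effectors that act on nucleotides or RNA, 4 genes of the PARP and DTX3L group, 2 membrane restriction factors and 8 others.

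Type I interferons are cytokines that a cell releases when it senses viral or misplaced nucleic acid. They bind the receptor made of IFNAR1 and IFNAR2, whose kinases JAK1 and TYK2 pass the signal on by phosphorylation. A complex that includes STAT2 and IRF9 then binds interferon-stimulated response elements (ISREs) in promoters and turns on genes whose products degrade viral RNA, block its translation or hold back virus particles. In macrophages the same genes are used as a readout of interferon signaling, and part of them also respond to interferon gamma, whose response elements are called GAS elements.

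The BMDMs were grown from C57BL/6 mice with M-CSF at 20 ng/mL and kept for 24 h in control media or in 75% conditioned media (CM) from LL2 cells, a Lewis lung carcinoma line. The LL2 cells were wild type (WT), KEAP1 KO or NRF2 KO and had conditioned the media for 48 h. Each medium was given with vehicle or with CDDO-Me at 100 nM, a synthetic oleanane triterpenoid that binds KEAP1, the protein that holds the transcription factor NRF2 inactive. The 8 groups are therefore media/vehicle (naive macrophages), WT CM/vehicle, KEAP1 KO CM/vehicle, NRF2 KO CM/vehicle, and the same 4 media with CDDO-Me, with 3 samples each. The KO mutations were made with CRISPR plasmids in the cancer cells, not in the macrophages, so the macrophage transcripts do not check them, and whether a KO line is 1 clone is not given in the sources used here. The samples of a group are called independent in the labels, but nothing ties them to separate mice, so a p-value measures only the spread between these samples, which may be technical. In bulk RNA, fewer cells of a type and less RNA per cell cannot be told apart.

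Levels are given as TPM, the length-corrected share of each gene in the transcripts of a library. Differences are on the log2 scale of scaled TPM plus 1, which understates changes of genes with low TPM, with a standard error (SE) from limma over 24 libraries, and each p-value was corrected over 13661 genes after Benjamini and Hochberg. A gene was called where its adjusted p was under 0.05. The number of reads per library is unknown. The libraries held between 17817 and 18993 genes above 0, except for replicate 3 of NRF2 KO CM/vehicle with 15702 and replicate 3 of NRF2 KO CM/CDDO-Me with 16299. The macrophage markers Lyz2 and Adgre1 were listed at 12084 to 34332 TPM and 350.4 to 929.3 TPM, and other markers of the lineage moved with the drug, as given with the marker lists. Of 7 NRF2 target genes, 7 rose with CDDO-Me in media, KEAP1 KO CM and NRF2 KO CM and 6 rose in WT CM. With CDDO-Me their summed TPM was 1825 to 1968 in WT CM and 2290 to 3139 in KEAP1 KO CM. It was 3362 to 4616 in media and 3625 to 5149 in NRF2 KO CM. The effect of CDDO-Me was smaller in WT CM than in media for 3 and larger for 0. The shares of all genes were 6.73% and 8.59%. Against NRF2 KO CM it was smaller for 4 and larger for 0, beside 5.81% and 7.61%. Between KEAP1 KO CM and media no target was called. All 38 members passed the filter of more than 1 TPM in at least 3 libraries, but Ifit3b, Ifit1bl1 and Oasl1 passed only through KEAP1 KO CM/CDDO-Me and WT CM/CDDO-Me BMDMs.

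Since the members are defined by their response to interferon, their promoters were searched for the core of the ISRE. The set of RefSeq promoters used here, on GRCm38.p6, held 29 of the members. The core was found in 14 of these 29, against 3.99% of the 27025 genes of the same set. The core was spelled GAAANNGAAA and searched on both strands of 300 bases, from 250 before the transcription start to 50 from the start on. A GAS element, spelled TTCNNNGAA, was present in 7 of 29 members against 9.55% of genes, and 2 of the 26 ISRE matches overlapped a GAS match. The core of the antioxidant response element bound by NRF2, spelled TGACNNNGC, was present in 5 of 29 against 14.0%. Usp18, Oas1b, Oas2, Mx1, Mx2, Parp9, Parp14, Rtp4 and Ifi27 were not in this set of promoters. The 150 bases before the start are shown, 5′ to 3′ on the strand of the gene and with ISRE cores in capitals, for 4 members with different numbers and places of the core, for the near copies Oas1a and Oas1g, and for Ifi44, which holds no match in the window.
Isg15 (chr4:156200819-156200968, minus strand): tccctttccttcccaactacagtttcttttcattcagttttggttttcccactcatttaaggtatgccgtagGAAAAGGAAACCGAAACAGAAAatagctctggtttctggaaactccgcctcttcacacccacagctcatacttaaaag
Ifit1 (chr19:34640739-34640888, plus strand): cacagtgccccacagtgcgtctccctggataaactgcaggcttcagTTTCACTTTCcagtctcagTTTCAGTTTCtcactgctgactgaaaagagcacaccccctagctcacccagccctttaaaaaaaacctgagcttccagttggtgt
Oas3 (chr5:120777660-120777809, minus strand): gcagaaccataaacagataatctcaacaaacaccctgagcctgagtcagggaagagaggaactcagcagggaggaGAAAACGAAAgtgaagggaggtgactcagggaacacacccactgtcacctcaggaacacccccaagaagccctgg
Bst2 (chr8:71537473-71537622, minus strand): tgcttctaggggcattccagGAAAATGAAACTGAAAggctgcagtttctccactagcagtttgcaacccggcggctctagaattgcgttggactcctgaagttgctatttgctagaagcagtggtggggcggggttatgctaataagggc
Oas1a (chr5:120907526-120907675, minus strand): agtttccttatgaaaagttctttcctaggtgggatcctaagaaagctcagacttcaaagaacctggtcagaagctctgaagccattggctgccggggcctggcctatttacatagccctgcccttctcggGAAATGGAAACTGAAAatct
Oas1g (chr5:120887614-120887763, minus strand): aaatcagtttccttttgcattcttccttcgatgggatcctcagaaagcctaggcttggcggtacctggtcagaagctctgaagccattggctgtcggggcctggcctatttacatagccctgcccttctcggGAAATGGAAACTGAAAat
Ifi44 (chr3:151749911-151750060, minus strand): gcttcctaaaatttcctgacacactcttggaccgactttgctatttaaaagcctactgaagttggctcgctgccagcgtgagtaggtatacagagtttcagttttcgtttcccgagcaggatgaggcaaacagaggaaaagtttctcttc
Isg15 holds 3 overlapping cores that begin 78, 72 and 66 bases before the start, Bst2 holds 2, and Ifit1 holds 2 on the opposite strand. The overlapping pair of Oas1a begins 20 bases before the start and that of Oas1g 18 bases before it, in a stretch that reads the same in both promoters. A match is a run of letters and not a measured binding site. Of the 26 matches, 21 lay within 200 bases before the start.

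**Figure D1:**
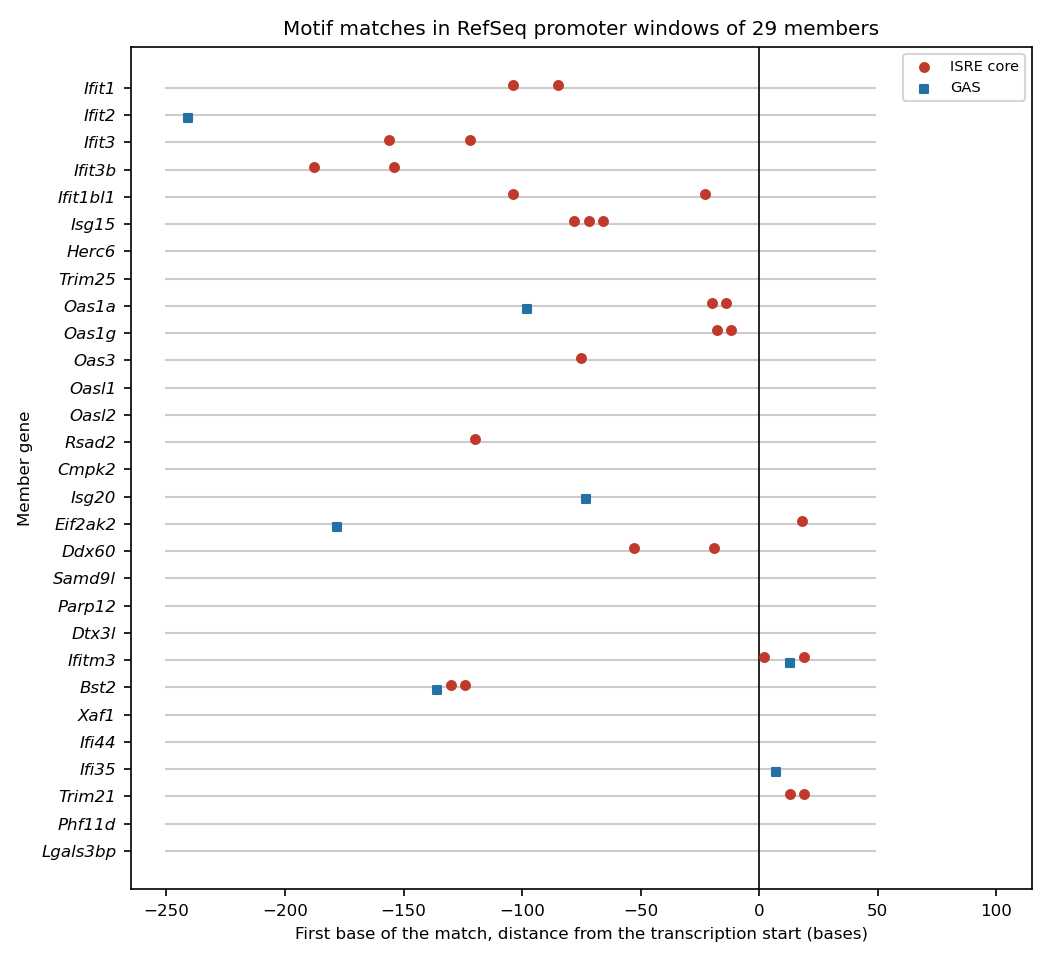
Motif matches in the RefSeq promoter windows of 29 members, with the distance from the transcription start in bases on the x axis (start at 0) and a line for each gene. Circles mark the first base of an ISRE core and squares that of a GAS element. Of the 26 ISRE matches, 21 lie within 200 bases before the start, and 15 of the 29 members have none.

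Many members lie in clusters of related genes, given here on GRCm39 with the GENCODE annotation. The 5 IFIT genes span chr19:34527932-34632174, Oas2, Oas3, Oas1b, Oas1g and Oas1a span chr5:120868398-121046449, and Oasl2 and Oasl1 span chr5:115034997-115075974. Mx1 and Mx2 lie within chr16:97248235-97362100, and Rsad2 and Cmpk2 point away from each other within chr12:26492745-26529836. Parp14, Dtx3l and Parp9 lie within chr16:35653231-35792980, where Dtx3l and Parp9 lie head to head on opposite strands and overlap. Related copies share sequence, so that reads can be split between them: of the 31-base words in its transcripts, Oas1g shares 61.6% with other genes, mainly Oas1a, Ifit3b 58.1% and Ifit3 39.4%, mainly with each other, and Oas1a 24.4%. Ifitm3 shares 61.7%, Isg15 33.4% and Rtp4 27.8%, mainly with the gene models Gm57251, Gm46878 and Gm45338, and Ifi35 shares 23.0%, mainly with Vat1. The levels of these 8 genes are uncertain, by an amount that was not measured.

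To assess whether CDDO-Me changes the interferon effectors of macrophages that meet cancer cell products, CDDO-Me was first compared with vehicle in WT CM and in KEAP1 KO CM. In WT CM, 31 of 38 members rose and 0 fell, where 14.4% of all genes tested rose and 13.4% fell. In KEAP1 KO CM, 34 of 38 rose and 0 fell, where 14.4% of all genes rose and 14.3% fell. The rise of Ifit3b, Ifit1bl1 and Oasl1 was fixed by the filter, and of the other 35 members 28 rose in WT CM and 31 in KEAP1 KO CM. The median log2 difference over these 35 was 2.10 in WT CM and 2.00 in KEAP1 KO CM, beside medians of -0.01 and -0.02 over all genes. The scaled values of the drug and vehicle libraries did not overlap, with the drug libraries higher, for 33 of the 35 in WT CM and 33 in KEAP1 KO CM, beside 25.3% and 23.7% of all genes, and with the drug libraries lower for 0, beside 25.2% and 25.6%. Without scaling between libraries, 30 members rose in each CM. Rises made up 39.1% of all genes called in WT CM and 34.6% in KEAP1 KO CM, beside 51.8% and 50.2% with scaling. The share of all genes tested that rose without scaling is not given here, so this count is not read as particular to the members. In TPM, 30 members were higher in all 6 libraries of KEAP1 KO CM/CDDO-Me and WT CM/CDDO-Me than in each of the other 18 libraries, 27 of them among the 35, beside 6.43% of all genes.

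**Figure D2:**
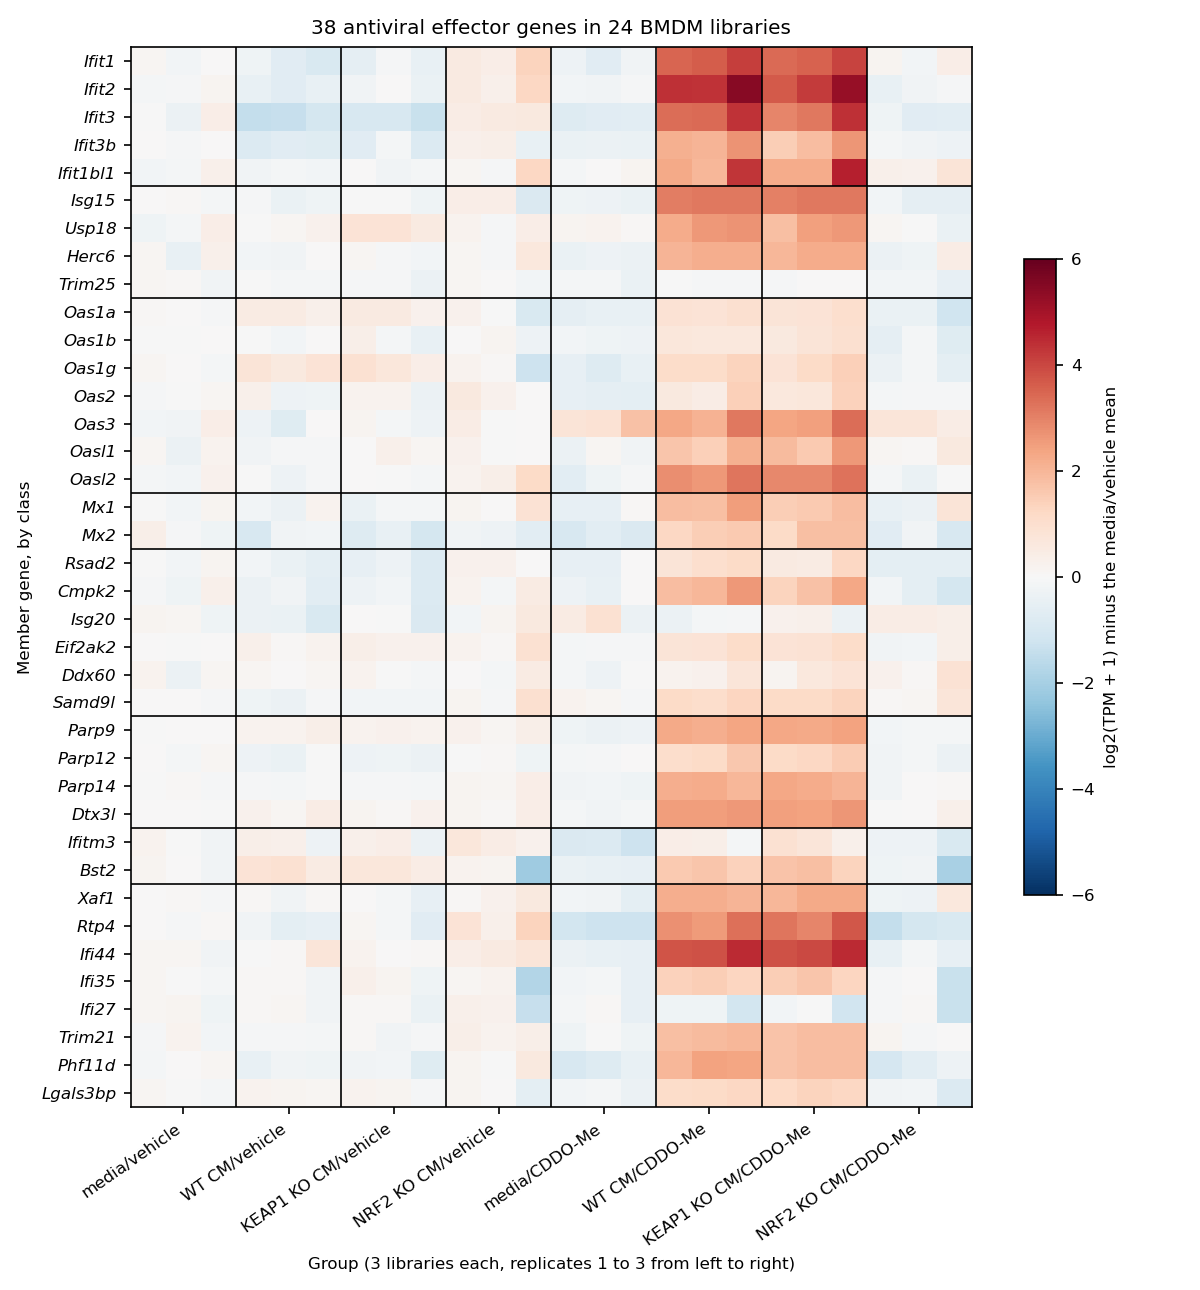
Levels of the 38 members (rows, by class) in 24 libraries (columns, 3 per group) as log2(TPM + 1) minus the mean of media/vehicle BMDMs, with red above and blue below that mean. The 6 libraries of KEAP1 KO CM/CDDO-Me and WT CM/CDDO-Me hold the highest TPM of 30 members, and replicate 3 of NRF2 KO CM/vehicle stands out from its group at Bst2, Ifi35 and Ifi27.

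The IFIT family, whose products bind viral RNA and block its translation, held the members with the largest differences. Ifit1, Ifit2 and Ifit3 rose, with log2 differences from 4.52 to 5.38 in WT CM and from 4.19 to 4.73 in KEAP1 KO CM. Ifit3b and Ifit1bl1 were also called, but passed the filter only through the drug groups of these CM. Ifit2 was listed at 2.40, 1.93 and 2.47 TPM in WT CM/vehicle BMDMs and at 95.3, 93.6 and 205 TPM with CDDO-Me, a log2 difference of 5.38 ± 0.35 (SE), adjusted p = 2.9e-10. With KEAP1 KO CM it was listed at 3.00, 3.71 and 2.53 TPM with vehicle and at 58.0, 84.2 and 175 TPM with CDDO-Me (4.72 ± 0.35, SE, adjusted p = 2e-09). Replicate 3 was the highest library of each drug group, and the drug libraries were far above every vehicle library. Ifit3, whose product binds other IFIT proteins, was listed at 0.996, 1.09 and 1.60 TPM with vehicle and 54.0, 56.5 and 109.6 TPM with CDDO-Me in WT CM (5.12 ± 0.32, SE, adjusted p = 1.6e-10). Its values in KEAP1 KO CM were 1.75, 1.82 and 1.15 TPM and 40.6, 48.2 and 111 TPM (4.73 ± 0.32, SE, adjusted p = 5.4e-10). The groups did not overlap for Ifit3 in either CM.

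Of the ISG15 system, which attaches a ubiquitin-like protein to viral and host proteins, Isg15, Usp18 and Herc6 rose in both CM. Isg15, the modifier itself, was listed at 11.5, 8.92 and 9.88 TPM with vehicle and 110.3, 117 and 117 TPM with CDDO-Me in WT CM (3.52 ± 0.20, SE, adjusted p = 6.6e-11). It went in KEAP1 KO CM from 11.9, 12.0 and 10.1 TPM to 105, 116 and 116 TPM (3.36 ± 0.20, SE, adjusted p = 1.3e-10). The spread within each group was small beside this difference. Usp18, the protease that removes ISG15 and restrains the interferon receptor, was listed at 2.85, 3.33 and 3.75 TPM and 17.7, 22.5 and 24.4 TPM in WT CM (2.51 ± 0.21, SE, adjusted p = 1.5e-08). In KEAP1 KO CM it was listed at 5.96, 5.85 and 4.75 TPM and 12.8, 20.7 and 22.8 TPM (1.72 ± 0.21, SE, adjusted p = 2.2e-06), from a higher level under vehicle. Trim25, a ubiquitin ligase that acts on the RNA sensor RIG-I, passed the test in KEAP1 KO CM alone, with 0.32 ± 0.10 (SE) and an adjusted p of 0.022, beside 0.16 ± 0.10 (SE) and an adjusted p of 0.3 in WT CM.

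Of the 6 OAS genes other than Oasl1, 5 rose in each CM. The OAS enzymes sense double-stranded RNA and make oligoadenylates that activate RNase L. Oasl2 was listed at 14.7, 12.2 and 14.2 TPM with vehicle and 112, 96.0 and 146 TPM with CDDO-Me in WT CM (3.13 ± 0.25, SE, adjusted p = 5.5e-09) and rose in KEAP1 KO CM (3.19 ± 0.25, SE, adjusted p = 4.1e-09). Oas3, the largest enzyme of the family, was listed at 4.48, 3.04 and 5.90 TPM and 32.2, 27.6 and 59.8 TPM in WT CM (2.98 ± 0.33, SE, adjusted p = 7.4e-07), with a difference of 2.97 ± 0.33 (SE), adjusted p = 8.1e-07 in KEAP1 KO CM. The groups of Oasl2 and Oas3 were apart in every library. Oas1a and Oas1g, whose promoters carry the same pair of ISRE cores, moved by 0.58 ± 0.20 and 0.58 ± 0.25 (SE) in WT CM, and Oas1a was called there with an adjusted p of 0.032 while Oas1g was not with 0.11. Oas1g was listed at 19.3, 17.2 and 20.4 TPM with vehicle and 24.7, 25.1 and 29.3 TPM with CDDO-Me in WT CM. In KEAP1 KO CM it had an adjusted p of 0.067, which became 0.047 without replicate 1 of KEAP1 KO CM/CDDO-Me.

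Both MX GTPases, which trap viral nucleocapsids, rose in both CM as transcripts (C57BL/6 mice are known to carry a defective Mx1 allele). Mx1 was listed at 11.2, 9.75 and 14.9 TPM with vehicle and 47.6, 46.5 and 75.7 TPM with CDDO-Me in WT CM (2.27 ± 0.32, SE, adjusted p = 1.4e-05), and its difference was 2.00 ± 0.32 (SE), adjusted p = 5.8e-05 in KEAP1 KO CM. Mx2 was a low gene, with 0.432, 1.42 and 1.44 TPM and 5.57, 6.64 and 7.19 TPM in WT CM (1.99 ± 0.24, SE, adjusted p = 2.2e-06) and a difference of 2.47 ± 0.24 (SE), adjusted p = 1.3e-07 in KEAP1 KO CM. No vehicle library of either gene reached a drug library of the same CM.

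Among the 6 effectors that act on nucleotides or RNA, Rsad2, Cmpk2, Eif2ak2 and Samd9l rose in both CM, while Isg20 and Ddx60 passed in neither. Cmpk2, a nucleotide kinase that lies next to Rsad2, was listed at 2.33, 2.67 and 1.74 TPM and 14.5, 15.7 and 24.5 TPM in WT CM (2.67 ± 0.29, SE, adjusted p = 4.1e-07), with 2.40 ± 0.29 (SE), adjusted p = 1.7e-06 in KEAP1 KO CM. Samd9l, which restricts translation in infected cells, was listed at 17.5, 16.7 and 20.3 TPM and 48.2, 45.5 and 53.9 TPM (1.52 ± 0.23, SE, adjusted p = 3.4e-05), with 1.55 ± 0.23 (SE), adjusted p = 2.5e-05 in KEAP1 KO CM. Both genes kept their drug libraries above their vehicle libraries. Isg20, an exonuclease that degrades RNA, was listed at 5.02, 4.72 and 3.00 TPM with vehicle and 4.89, 5.98 and 6.29 TPM with CDDO-Me in WT CM (0.49 ± 0.28, SE, adjusted p = 0.23). The TPM of these groups overlapped, while their scaled values did not. Ddx60, a helicase that aids RNA sensing, was listed at 2.77, 2.63 and 2.83 TPM and 3.11, 3.23 and 4.83 TPM in WT CM (0.42 ± 0.25, SE, adjusted p = 0.25). Its difference in KEAP1 KO CM was 0.65 ± 0.25 (SE), adjusted p = 0.059, which became 0.84 with an adjusted p of 0.026 without replicate 1 of KEAP1 KO CM/CDDO-Me.

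The 4 genes of the PARP and DTX3L group rose in both CM, with median log2 differences of 2.25 and 2.35. PARP9 and DTX3L form an ADP-ribosyl and ubiquitin ligase pair, and PARP14 modifies signaling proteins of the interferon pathway. Dtx3l was listed at 17.9, 16.2 and 20.6 TPM with vehicle and 90.2, 88.7 and 96.6 TPM with CDDO-Me in WT CM (2.41 ± 0.14, SE, adjusted p = 1.1e-10), and at 16.8, 15.8 and 18.2 TPM and 86.5, 84.5 and 99.3 TPM in KEAP1 KO CM (2.51 ± 0.14, SE, adjusted p = 6e-11). Its neighbor Parp9 differed by 2.16 ± 0.11 (SE) in WT CM and 2.25 ± 0.11 (SE) in KEAP1 KO CM, and since the pair overlaps, reads of the shared stretch cannot be assigned without strand. Parp14 was listed at 21.4, 20.6 and 22.5 TPM and 107, 110.2 and 92.2 TPM in WT CM (2.34 ± 0.11, SE, adjusted p = 3.3e-12), with 2.44 ± 0.11 (SE), adjusted p = 1.7e-12 in KEAP1 KO CM. The TPM of these genes with CDDO-Me were above those of each vehicle library.

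The membrane restriction factors were high before treatment and moved less. Bst2 (tetherin), which holds budding virus at the cell surface, was listed at 408, 425 and 322 TPM with vehicle and 687, 734 and 595 TPM with CDDO-Me in WT CM (0.94 ± 0.43, SE, adjusted p = 0.12). With KEAP1 KO CM it was listed at 363, 359.6 and 310.0 TPM and 738, 803 and 578 TPM (1.20 ± 0.43, SE, adjusted p = 0.041), a call that was lost without any of the 6 libraries left out in turn, with adjusted p from 0.063 to 0.1. The libraries did not overlap in either CM, while the SE of Bst2, estimated over all 8 groups, includes its low values in replicate 3 of both NRF2 KO CM groups. Ifitm3, which blocks fusion of viral and cell membranes, was listed at 767, 741 and 497 TPM and 791, 783 and 565 TPM in WT CM (0.23 ± 0.21, SE, adjusted p = 0.48). Its values in KEAP1 KO CM were 761, 809 and 475 TPM and 1133, 1017 and 747 TPM (0.69 ± 0.21, SE, adjusted p = 0.016), and the adjusted p was 0.12 without replicate 3 of KEAP1 KO CM/vehicle and 0.092 without replicate 1 of KEAP1 KO CM/CDDO-Me.

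Of the 8 remaining members, Xaf1, Rtp4, Ifi44, Ifi35, Trim21, Phf11d and Lgals3bp rose in both CM, and Ifi27 in neither. Ifi44, a cytoplasmic protein long known as an interferon readout, was listed at 0.669, 0.810 and 1.85 TPM with vehicle and 22.6, 23.6 and 36.7 TPM with CDDO-Me in WT CM (3.90 ± 0.23, SE, adjusted p = 5.9e-11), and no ISRE core was found in its window. In KEAP1 KO CM it was listed at 0.975, 0.756 and 0.809 TPM and 23.1, 25.8 and 36.7 TPM (4.11 ± 0.23, SE, adjusted p = 2.8e-11). Rtp4, a receptor transporter protein induced by interferon, was listed at 14.0, 10.4 and 11.2 TPM and 116, 102 and 168 TPM in WT CM (3.44 ± 0.28, SE, adjusted p = 8.4e-09), with 3.69 ± 0.28 (SE), adjusted p = 2.9e-09 in KEAP1 KO CM. Both genes were apart from vehicle in every library. Ifi27, a mitochondrial and nuclear membrane protein, was listed at 277, 284 and 228 TPM with vehicle and 218, 220.1 and 123 TPM with CDDO-Me in WT CM (-0.40 ± 0.37, SE, adjusted p = 0.5). Its difference in KEAP1 KO CM was -0.19 ± 0.37 (SE), adjusted p = 0.77, and replicate 3 was the lowest library of each of these groups.

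**Figure D3:**
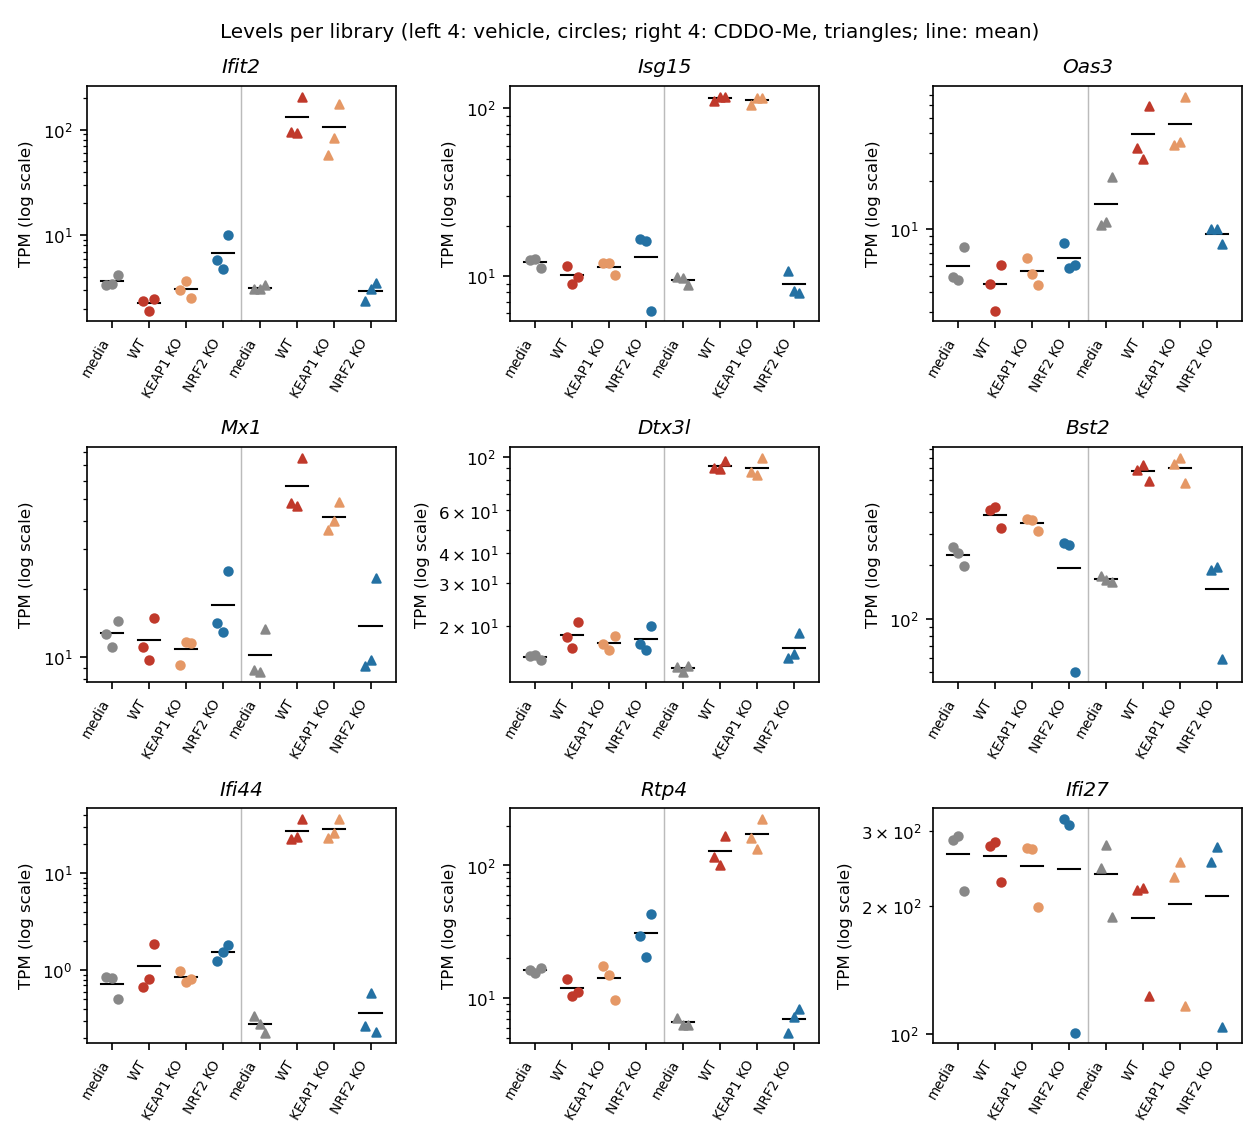
TPM per library on a log scale for 9 members in the 8 groups, with vehicle groups as circles on the left, CDDO-Me groups as triangles on the right, and a line at each mean of 3 libraries. Ifit2, Isg15, Oas3, Mx1, Dtx3l, Ifi44 and Rtp4 are highest in the 6 libraries of KEAP1 KO CM/CDDO-Me and WT CM/CDDO-Me, and the TPM of Ifi27 overlap across most groups.

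The spread within the drug groups was not even. Replicate 3 was the highest of the 3 libraries for 29 of 38 members in WT CM/CDDO-Me and for 27 of 38 in KEAP1 KO CM/CDDO-Me BMDMs, beside 37.3% and 34.2% of all genes. Ifit1bl1 was the widest example, with 4.83, 3.70 and 22.3 TPM in WT CM/CDDO-Me and 4.55, 4.61 and 29.4 TPM in KEAP1 KO CM/CDDO-Me, and was named after its values were seen. Without the third library of every group, an alternative chosen after seeing the data, 34 of 38 members were called in WT CM and 34 in KEAP1 KO CM. The share of all genes called in this fit is not given here.

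No difference between the responses in WT CM and KEAP1 KO CM was detected for any member. For the difference between the effects of CDDO-Me in these CM, 0 of 38 members and 0% of all genes were called by limma. An unadjusted p under 0.05 was found for 1 of 38 members, beside 224 of the 13661 genes. The intervals (95%) of the 38 differences ran from -1.68 to 1.83 on the log2 scale, with both ends in the IFIT family. Those of the PARP and DTX3L group ran from -0.325 to 0.542. The size of difference that could not be told from none therefore varied between members. The member with the unadjusted p was Usp18, with a log2 difference of -0.78 ± 0.30 (SE) and an unadjusted p of 0.0163. No member passed the limma test between KEAP1 KO CM and WT CM under vehicle or under CDDO-Me, with 0 calls each, beside 0% and 0.0439% of all genes. The unadjusted p was under 0.05 for Usp18 under vehicle and for Phf11d under CDDO-Me, beside 350 and 561 of the 13661 genes. Trim25, Ifitm3 and Bst2, which passed in KEAP1 KO CM and not in WT CM, are not shown to differ between them.

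To examine whether the drug alone had this effect, CDDO-Me was compared with vehicle in control media. There, 1 of 38 members rose and 2 fell, beside 3.22% and 2.8% of all genes. The median over the members was -0.26, beside 0.00 over all genes. Oas3 was listed at 4.94, 4.75 and 7.71 TPM with vehicle and 10.6, 11.0 and 21.2 TPM with CDDO-Me (1.14 ± 0.33, SE, adjusted p = 0.049), and its call was lost without 5 of the 6 libraries left out in turn, with adjusted p up to 0.26 without replicate 3 of media/CDDO-Me. Ifitm3 fell from 708, 599 and 531 TPM to 330.3, 348 and 255 TPM (-0.96 ± 0.21, SE, adjusted p = 0.0067), and Rtp4 from 16.4, 15.6 and 16.9 TPM to 7.14, 6.30 and 6.33 TPM (-1.17 ± 0.28, SE, adjusted p = 0.013). The libraries of these 3 genes did not overlap, and the call of Rtp4 was lost without replicate 2 of media/CDDO-Me, with an adjusted p of 0.055 and 1 member called in all. With the replicate number as a block, 6 members were called, 1 higher and 5 lower, with Mx2, Parp9 and Phf11d added. Without the third library of every group, 14 were called, 2 higher and 12 lower. For these alternative fits the shares of all genes called are not given here, so their counts are not read as particular to the members. On the scaled values, 20 of 38 members were lower in every drug library than in every vehicle library, beside 16.3% of all genes, and 2 were higher, beside 14.8%.

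In NRF2 KO CM, 0 members rose with CDDO-Me and 6 fell, beside 4.87% and 4.74% of all genes, with a median over the members of -0.25 beside 0.02 over all genes. Rtp4 fell from 29.2, 20.4 and 43.0 TPM to 5.50, 7.21 and 8.25 TPM (-1.92 ± 0.28, SE, adjusted p = 0.0001). Ifitm3 fell from 987, 836 and 729 TPM to 488, 494 and 319 TPM (-0.95 ± 0.21, SE, adjusted p = 0.0048). Ifi44 was listed at 1.23, 1.53 and 1.83 TPM and 0.265, 0.583 and 0.230 TPM (-0.88 ± 0.23, SE, adjusted p = 0.016). These 3 genes were lower in every drug library than in every vehicle library. The other 3 were Phf11d (-0.84 ± 0.21, SE, adjusted p = 0.014), Ifit3 (-1.04 ± 0.32, SE, adjusted p = 0.044) and Rsad2 (-0.72 ± 0.21, SE, adjusted p = 0.036), where Rsad2, also known as viperin, makes a nucleotide that stops viral polymerases. The call of Ifit3 was lost without any of the 6 libraries and that of Rsad2 without 5 of 6, those of Ifi44 and Phf11d without replicate 3 of NRF2 KO CM/vehicle or replicate 1 of NRF2 KO CM/CDDO-Me, and that of Ifi44 also without replicate 3 of NRF2 KO CM/CDDO-Me. Without replicate 1 of NRF2 KO CM/CDDO-Me, 2 members were called. The 2 libraries with few genes detected, replicate 3 of each NRF2 KO CM group, also had low values of some members: Bst2 was listed at 266, 258 and 50.4 TPM with vehicle and 188, 195 and 59.2 TPM with CDDO-Me. Without these 2 libraries, 5 members were called: the calls of Rtp4, Ifitm3 and Phf11d were kept, those of Ifi44, Ifit3 and Rsad2 were lost, and Isg15 and Oas1a were added. With the replicate number as a block, 9 were called, all lower, with Ifit2, Oasl2 and Parp9 added. Fitted on the NRF2 KO CM libraries alone, 0 members were called, with adjusted p of the 6 genes from 0.074 to 0.39. Without the third library of every group 18 were called, 1 higher and 17 lower. The shares of all genes called in these alternative fits are not given here either. Their counts are therefore not read as particular to the members.

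**Figure D4:**
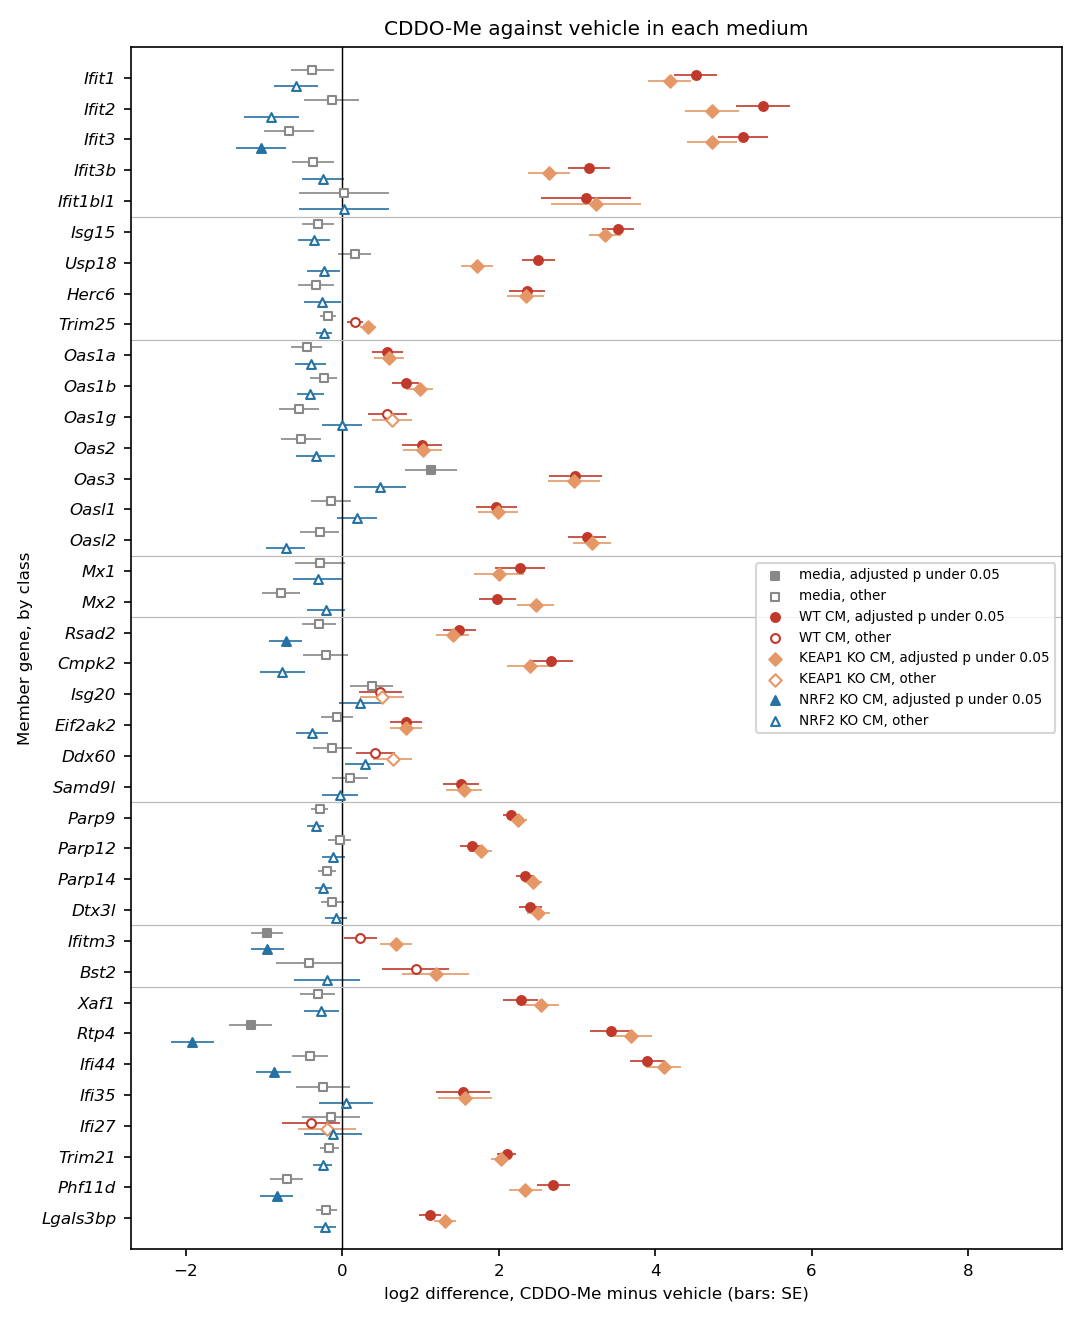
Log2 differences of CDDO-Me minus vehicle for the 38 members in media (squares), WT CM (circles), KEAP1 KO CM (diamonds) and NRF2 KO CM (triangles), with SE as bars and filled symbols where the adjusted p was under 0.05. In WT CM 31 and in KEAP1 KO CM 34 members are filled to the right of 0, while 3 are filled in media and 6 in NRF2 KO CM, all 6 to the left.

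The differences between these responses were tested themselves. The effect of CDDO-Me was larger in WT CM than in media for 33 of 38 members and smaller for 0, beside 8.59% of all genes that were larger and 6.73% that were smaller, and for 30 of the 35 that passed the filter without the drug groups of WT and KEAP1 KO CM, with a median difference over these of 2.26. In KEAP1 KO CM it was larger than in media for 34 and smaller for 0, beside 8.19% and 6.65% of all genes, and for 31 of the 35, with a median of 1.83. In WT CM it was larger than in NRF2 KO CM for 32 and smaller for 0, beside 7.61% and 5.81%, and for 29 of the 35. For NRF2 KO CM against media, 0 members and 0% of all genes were called by limma, with intervals (95%) of the members between -1.79 and 1.70. An unadjusted p under 0.05 was found for 0 members, beside 359 of the 13661 genes. The comparisons with media share the media libraries.

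CM was also compared with media in the absence of CDDO-Me, where the number of members called depended on the fit. For the alternative fits the shares of all genes called are not given, so their counts are not read as particular to the members. WT CM against media under vehicle gave 0 members higher and 1 lower, beside 4.38% and 2.85% of all genes. Ifit3 was that member, at 4.41, 3.21 and 6.10 TPM in media/vehicle and 0.996, 1.09 and 1.60 TPM in WT CM/vehicle BMDMs (-1.24 ± 0.32, SE, adjusted p = 0.019), and its call was lost without replicate 1 or 3 of media/vehicle or replicate 1 or 2 of WT CM/vehicle, with 0 members called each time. With the replicate number as a block, 3 members were called, with Dtx3l and Parp9 added as higher, with only the compared groups 5 were, 4 higher and 1 lower, and without the third library of every group 8 were, 4 higher and 4 lower. KEAP1 KO CM gave 1 higher and 1 lower, beside 4.87% and 3.19% of all genes. Usp18 was listed at 2.26, 2.62 and 4.17 TPM in media/vehicle and 5.96, 5.85 and 4.75 TPM in KEAP1 KO CM/vehicle BMDMs (0.72 ± 0.21, SE, adjusted p = 0.04), and Ifit3 was lower by the same test (-1.08 ± 0.32, SE, adjusted p = 0.041). Each of these calls was lost without 5 of the 6 libraries, and 0 members were called without media/vehicle replicate 1 or without any library of KEAP1 KO CM/vehicle. With only the compared groups 8 members were called, 6 higher and 2 lower, and without the third library of every group 7 were, 5 higher and 2 lower. NRF2 KO CM gave 0 calls by limma, beside 0.00732% of all genes called. An unadjusted p under 0.05 was found for 8 of 38 members, beside 1650 of the 13661 genes. The intervals (95%) of the 38 differences between NRF2 KO CM and media ran from -1.47 to 1.63.

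Under CDDO-Me, WT CM against media gave 36 of 38 members higher and 0 lower, beside 14% and 12.8% of all genes. KEAP1 KO CM against media gave 36 higher and 0 lower, beside 12.1% and 10.5%. Of the 35, 33 were higher in each, with medians of 2.25 and 2.12. NRF2 KO CM against media gave 0 calls by limma, beside 0.19% of all genes called. An unadjusted p under 0.05 was found for 2 of 38 members, beside 1000 of the 13661 genes. With the replicate number as a block, Ifitm3 was called as higher in NRF2 KO CM. No member passed the test between KEAP1 KO CM/CDDO-Me and WT CM/CDDO-Me, the groups with the highest means for most members. These members include Ifit3b, Ifit1bl1 and Oasl1, which passed the filter only through these groups. How often all genes rank the groups so was not counted.

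The genes that induce and transmit interferon signals, from a written list of 42 names of which 40 were found and 32 tested, moved with CDDO-Me and also with CM alone. In WT CM, 19 of 32 rose with CDDO-Me and 2 fell, beside 14.4% and 13.4% of all genes, and in KEAP1 KO CM 19 rose and 2 fell, beside 14.4% and 14.3%. In media 0 rose and 1 fell, beside 3.22% and 2.8%, and in NRF2 KO CM 1 rose and 1 fell, beside 4.87% and 4.74%, so the counts in these media were near the shares of all genes. Under vehicle, WT CM against media gave 7 of the 32 higher and 1 lower, beside 4.38% and 2.85% of all genes, and KEAP1 KO CM 7 higher and 2 lower, beside 4.87% and 3.19%. Socs1, an inhibitor of JAK signaling, was listed at 1.20, 0.978 and 0.652 TPM in media/vehicle and 22.3, 23.1 and 25.8 TPM in WT CM/vehicle BMDMs, and was named after its values were seen. Stat2, which acts with IRF9 downstream of the type I receptor, was listed at 47.6, 37.7 and 48.5 TPM with vehicle and 133, 139 and 158 TPM with CDDO-Me in WT CM (1.80 ± 0.12, SE, adjusted p = 3.9e-10). All 3 drug libraries of WT CM were above its 3 vehicle libraries. Zbp1, a sensor of unusual nucleic acid that triggers cell death, was listed at 20.4, 14.2 and 31.1 TPM and 340.3, 311 and 388 TPM (4.12 ± 0.27, SE, adjusted p = 3.1e-10). Sting1, the adaptor for cytosolic DNA sensing, rose by 2.10 ± 0.12 (SE), adjusted p = 5.4e-11 in WT CM and was the gene that rose in NRF2 KO CM (0.64 ± 0.12, SE, adjusted p = 0.0013). Irf1, a transcription factor that interferon gamma induces strongly, was listed at 74.6, 56.8 and 112 TPM and 889.5, 915 and 986 TPM (3.69 ± 0.24, SE, adjusted p = 4.2e-10). Irf8, a transcription factor of the myeloid lineage, rose by 2.36 ± 0.21 (SE), adjusted p = 3.3e-08. Tlr9, the endosomal receptor for unmethylated DNA, rose by 3.07 ± 0.26 (SE), adjusted p = 1.7e-08, while the genes that fell in both CM, seen after their values, were Tlr4 and Tlr7, with -0.76 ± 0.13 (SE), adjusted p = 0.00016 and -1.65 ± 0.45 (SE), adjusted p = 0.0086 in WT CM. Ikbke, a kinase that activates IRF3, fell in media (-1.61 ± 0.24, SE, adjusted p = 0.00019) and in NRF2 KO CM (-1.39 ± 0.24, SE, adjusted p = 0.00057).

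The interferon transcripts that were read were at or near the bottom of the scale. Ifnb1 and Ifng were listed at 0 in 23 of 24 libraries each, with highest values of 0.131 and 0.0637 TPM, and Ifna1, Ifna2, Ifna4, Ifna5, Ifnl2 and Ifnl3 were listed at 0 in all 24. The receptor genes Ifnar1 and Ifnar2 were not called in WT CM, with log2 differences of -0.16 ± 0.11 (SE), adjusted p = 0.3 and 0.38 ± 0.17 (SE), adjusted p = 0.097. Without the number of reads, a value of 0 sets no upper limit, and RNA was sampled at 24 h only.

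**Figure D5:**
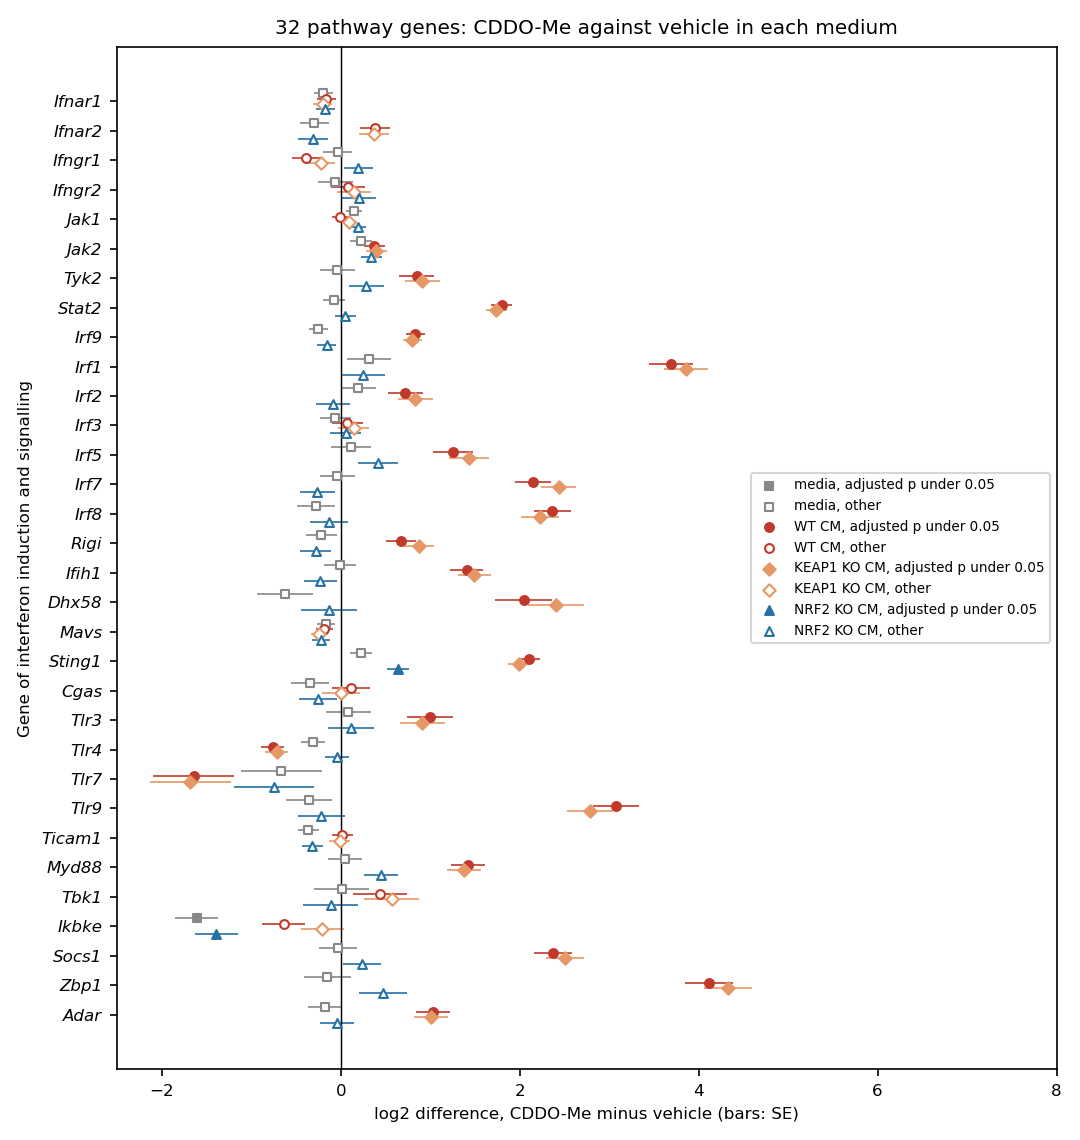
Log2 differences of CDDO-Me minus vehicle for 32 genes of interferon induction and signaling, with the symbols and SE bars of the 4 media as in the plot of the members' differences. In WT CM and KEAP1 KO CM 19 genes are filled to the right of 0 and 2 to the left in each, with Zbp1 the farthest right at 4.12 and 4.33.

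Markers of other cell types were read in the same libraries. The summed TPM of 4 conventional dendritic cell markers was 46.8 to 126.6 in the 6 libraries of KEAP1 KO CM/CDDO-Me and WT CM/CDDO-Me. It was 0.703 to 1.82 in the other 18. Clec9a and Xcr1 were called as higher in both CM. At these sums they may have passed the filter only through the 6 libraries, which would fix their rise. Flt3 stayed at or under 0.239 TPM and Zbtb46 at or under 1.36 TPM in all 24 libraries. The sum of 9 fibroblast markers was 221.6 to 932.7 in the same 6 libraries and 554.3 to 2807 in the others. The sum of 8 neutrophil markers was 11.7 to 76.2, and of these S100a8 rose with CDDO-Me in WT, KEAP1 KO and NRF2 KO CM. The sum of 5 plasmacytoid dendritic cell markers, mostly Il3ra, was 87.4 to 112.2 in 22 libraries and lower in replicate 3 of both NRF2 KO CM groups, with Siglech at or under 0.513 TPM throughout. The sum of 4 B cell markers was at most 2.65 TPM, of 5 T and NK cell markers at most 1.70 and of 4 epithelial markers at most 7.23, the last in KEAP1 KO CM/vehicle BMDMs. Of 7 macrophage markers, Fcgr1 and Mertk rose and Cd68 fell with CDDO-Me in both WT and KEAP1 KO CM. In WT CM, Fcgr1 averaged 50.5 ± 1.27 TPM (SD, n = 3) with vehicle and 479 ± 27.2 TPM with CDDO-Me. Mertk averaged 32.4 ± 0.42 and 57.3 ± 4.53 TPM, and Cd68 2109 ± 92.5 and 725 ± 62.8 TPM. The sum of the 7 was 14888 to 18161 TPM in the 6 libraries of KEAP1 KO CM/CDDO-Me and WT CM/CDDO-Me and 16604 to 38321 TPM in the other 18. The part of these markers in the rise of the members was not tested.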

How the data were processed

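Poly-A RNA of 24 BMDM samples was sequenced as paired reads. Per the labels and the submitters' processing notes, transcripts were quantified with kallisto against the GRCm39 cDNA, and the authors deposited gene-level TPM, whose column totals of 999365 to 999801 hide the number of reads, so no counting interval can be given. The reads were not reprocessed here.

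From the deposited TPM, a line without a gene name was left out, libraries were scaled by trimmed mean of M values (TMM, trims of 30% and 5%, unweighted), and log2(scaled TPM + 1) of the 13661 genes above 1 TPM in at least 3 libraries was fitted with limma 3.58.1 in R 4.3.3 (8 groups, empirical Bayes with trend, 16 residual degrees of freedom before moderation). Tests were two-sided and corrected (Benjamini-Hochberg) across the 13661 genes in each of 17 comparisons. The fit was tested on simulated data. The members and lists were chosen with earlier results of these data known. In each class up to 2 members with a mean of at least 1 TPM and the largest absolute difference in WT CM are given in every library, with those called against the main direction or in neither CM, and 6 pathway genes with the smallest adjusted p for the difference between WT CM and media. A gene of that pathway is not reported here. Trim25, Oas1a, Parp9, Ifit1bl1, Tlr4, Tlr7, Ikbke, Ifnar1, Ifnar2, Socs1 and the marker genes were named, and the counts over 35 members added, after the values were seen.

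Samples with the same replicate number in the labels deviated from their group means together, with correlations over genes from 0.02 to 0.72. Their mean was 0.26 over 84 pairs, 13 of them at or under 0.1. The mean for different numbers was -0.12, which is not a separate baseline, since deviations from a group mean cancel within the group. The numbers were taken to pair the samples where all pairs of a comparison were over 0.1. This held for CDDO-Me in media and in NRF2 KO CM and for WT CM against media under vehicle. It also held for each CM against media under CDDO-Me and for KEAP1 KO against WT CM. The main fit had no block, so its calls in these comparisons ignore the pairing. Counts with the replicate number as a block are given as an alternative. Alternatives were another scaling (median ratio), no scaling, no filter, a pseudocount of 0.1, no trend, only the compared groups, a replicate block and leaving out libraries. Figures were drawn with matplotlib 3.10.9.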

Additional observations from a re-analysis of the deposited data

Results flagged for a closer look

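The effect of CDDO-Me on the effectors differed between media by a test of the difference itself. It was larger in WT CM than in media for 33 members, beside 8.59% of all genes, larger in KEAP1 KO CM than in media for 34, beside 8.19%, and larger in WT CM than in NRF2 KO CM for 32, beside 7.61%. It was smaller for 0 members in each, beside 6.73%, 6.65% and 5.81% of all genes (limma, Benjamini-Hochberg). The larger effect of Ifit3b, Ifit1bl1 and Oasl1 was fixed by the filter. Among the other 35 members the counts were 30, 31 and 29. Among the members named above, the difference between WT CM and media was 5.51 for Ifit2, 5.80 for Ifit3, 3.83 for Isg15 and 2.35 for Usp18 on the log2 scale. It was 3.42 for Oasl2, 1.84 for Oas3, 2.55 for Mx1, 2.77 for Mx2, 2.88 for Cmpk2 and 1.41 for Samd9l. It was 2.53 for Dtx3l, 2.53 for Parp14, 4.31 for Ifi44 and 4.61 for Rtp4. For Ifitm3 it was 1.19, where CDDO-Me lowered the gene in media and moved it by 0.23 in WT CM. For Oas1g it was 1.13 with an adjusted p of 0.038, although neither effect passed the test on its own, and this call was lost without 10 of the 12 libraries left out in turn, with adjusted p up to 0.11. What sets these differences was not tested. Groups of 3 samples are too small for a test of single samples that stand apart.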

How the results depend on the processing

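Counts of members called with CDDO-Me in WT CM and KEAP1 KO CM, for these CM against media under CDDO-Me, and for the 3 differences between effects that had calls stayed within 1.5 times of those given above under every alternative, and the 5 comparisons with 0 calls among KEAP1 KO CM and WT CM, NRF2 KO CM and media under vehicle, and their effects, stayed at 0. The small counts moved, and the cause was not tested. The shares of all genes called under the alternatives are not given here, so a moved count is not read as particular to the members. For CDDO-Me in media, with 3 calls, the count was 5 without scaling, 8 with only the compared groups and 14 without the third library of every group. For CDDO-Me in NRF2 KO CM, with 6 calls, it was 0 with only the compared groups and 18 without the third libraries. For WT CM against media under vehicle, with 1 call, it was 2 with a pseudocount of 0.1, 5 with only the compared groups and 8 without the third libraries. For KEAP1 KO CM against media under vehicle, with 2 calls, it was 0 without a filter, 8 with only the compared groups and 7 without the third libraries. For NRF2 KO CM against media under CDDO-Me it was 1 without the third libraries.

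With the replicate number as a block, the count was 6 for CDDO-Me in media, 9 in NRF2 KO CM, 3 with WT CM and 4 with KEAP1 KO CM against media under vehicle, and 1 for NRF2 KO CM against media under CDDO-Me. All calls made without the block were kept, and the block added at most 1 member in the other comparisons.

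Leaving out 1 library at a time gave 1 to 3 calls for CDDO-Me in media, 30 to 30 in WT CM, 30 to 34 in KEAP1 KO CM and 2 to 6 in NRF2 KO CM. Against media under vehicle it gave 0 to 1 for WT CM and also 0 to 1 for KEAP1 KO CM. Among the 72 values of named members, signs turned only for some that were not called. Isg20 differed between WT CM and media in the effect of CDDO-Me by 0.11, by -0.22 to 0.37 with 1 library left out, and by -0.33 without the third libraries. Ifi27 moved by -0.41 to 0.0049 in the same difference and by -0.36 to 0.12 with CDDO-Me in KEAP1 KO CM. Without scaling, the median of all genes moved to -0.12 with CDDO-Me in WT CM and to -0.17 in KEAP1 KO CM, the share of higher calls among all genes called fell from 51.8% to 39.1% and from 50.2% to 34.6%, and 30 and 30 members were called.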
